A study of Mus musculus with 21 samples.

Results

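Neutrophil granule and surface genes were followed in mouse lung with 7 transcripts: S100a8, S100a9, Ngp, Camp, Ltf, Cxcr2 and Trem1. They were taken as the probe sets whose platform annotation carries one of these symbols, and each gene had 1 probe set, so 7 of the 12393 genes on the arrays are described. The probe set of S100a8 has a name of the kind that can match several transcripts of a gene or family. The study used the whole homogenized left lung of female BALB/c mice, 8 weeks old, after a single dose given by intratracheal aspiration. MACA is Metarhizium anisopliae crude antigen, made from a fungus that infects insects, given as 20 µg in 50 µl of Hank's Balanced Salt Solution (HBSS), BSA is bovine serum albumin at the same dose and volume, and HBSS alone (50 µl) was the vehicle. Lungs were taken 12 h or 3 h after the dose, which gave 6 groups and 21 arrays in all, with 3 for MACA 12 h, 4 for MACA 3 h, 4 for BSA 12 h, 3 for BSA 3 h, 4 for HBSS 12 h and 3 for HBSS 3 h. The mice carried no transgene or deletion named in the labels, and every group received the HBSS fluid. The labels call the arrays of a group biological replicates without saying whether each is a separate mouse, so p-values measure the spread between these arrays.

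Neutrophils are short-lived white blood cells that move from blood into inflamed tissue. During their growth in the bone marrow they make granule proteins in order, first those of the primary (azurophil) granules such as myeloperoxidase, then those of the secondary granules such as lactoferrin, and the transcripts of most granule proteins are low in the mature cell that leaves the marrow. S100a8 and S100a9 instead stay abundant in mature neutrophils, where their proteins pair as calprotectin, a calcium- and zinc-binding complex of the cytosol. CXCR2 is the receptor through which mouse neutrophils follow chemokines such as CXCL1 and CXCL2, and TREM1 is a surface receptor of neutrophils and monocytes that amplifies inflammatory signals.

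All values below are log2 of quantile-normalized intensity plus 16, with intensities below 0 set to 0, so that 4.00 is the floor. The noise level was 5.83 on this scale (intensity 40.9), under which 95% of the scaled values below 0 fell in size. The median deposited intensity of an array ran from 93.0 to 287. The arrays fell into 2 technical sets by the ratio of a pair of probe sets for 1 spiked hybridization control: 13 arrays with a ratio of 1.62 to 1.91 (high set) and 8 with 0.939 to 1.22 (low set). All 3 MACA 12 h arrays were in the high set and all 4 HBSS 12 h arrays in the low one, together with replicates 3 and 4 of both MACA 3 h and BSA 12 h. MACA 12 h and HBSS 12 h therefore share no set, and what passed between them is also given with the set as a term in the fit. The term rests on MACA 3 h and BSA 12 h, the only groups with arrays of both sets, and carries any other difference among those arrays. The share of all genes called with the term was not counted. HBSS 3 h arrays were all in the high set, so HBSS 12 h and HBSS 3 h share no set either. Alveolar epithelial markers, which define lung, had a summed scaled intensity of 48563 to 61454 over the 21 arrays, with none of the 7 markers under the noise level on all arrays.

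The starts of the genes are shown because S100a8 and S100a9 followed each other across arrays, Ngp and Camp stood out together on a single array, and Trem1 passed the test in each comparison of MACA with a control. All 7 genes matched the RefSeq promoter table of build GRCm38.p6, which gives a 300-base window around each gene's start. Matches to 2 motifs on either strand are in capitals: the C/EBP form TTGCNNAA, found in 10.8% of the 32841 windows of the table, and the PU.1 core GAGGAA, found in 28.3%. C/EBP factors and PU.1 are transcription factors of the myeloid lineage. S100a8 lies at chr3:90668821-90669120 (plus strand), S100a9 at chr3:90695672-90695971 (minus strand), Ngp at chr9:110419558-110419857 (plus strand), Camp at chr9:109849407-109849706 (minus strand) and Trem1 at chr17:48232489-48232788 (plus strand).
S100a8: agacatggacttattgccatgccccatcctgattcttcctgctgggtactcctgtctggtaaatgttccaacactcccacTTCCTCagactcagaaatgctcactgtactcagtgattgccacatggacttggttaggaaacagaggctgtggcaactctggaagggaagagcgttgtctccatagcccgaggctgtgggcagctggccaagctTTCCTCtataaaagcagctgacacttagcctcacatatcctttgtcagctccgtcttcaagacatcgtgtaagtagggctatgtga
S100a9: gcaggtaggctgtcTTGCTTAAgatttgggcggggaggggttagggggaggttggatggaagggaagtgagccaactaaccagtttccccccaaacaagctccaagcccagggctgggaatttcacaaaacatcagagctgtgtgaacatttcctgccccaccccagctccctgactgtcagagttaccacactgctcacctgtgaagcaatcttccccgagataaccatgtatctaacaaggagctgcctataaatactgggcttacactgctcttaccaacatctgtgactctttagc
Ngp: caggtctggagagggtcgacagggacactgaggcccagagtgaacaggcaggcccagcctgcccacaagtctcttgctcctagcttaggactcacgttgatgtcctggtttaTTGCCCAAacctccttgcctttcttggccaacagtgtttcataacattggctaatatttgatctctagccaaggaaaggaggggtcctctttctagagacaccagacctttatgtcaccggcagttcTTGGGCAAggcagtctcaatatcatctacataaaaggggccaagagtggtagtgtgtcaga
Camp: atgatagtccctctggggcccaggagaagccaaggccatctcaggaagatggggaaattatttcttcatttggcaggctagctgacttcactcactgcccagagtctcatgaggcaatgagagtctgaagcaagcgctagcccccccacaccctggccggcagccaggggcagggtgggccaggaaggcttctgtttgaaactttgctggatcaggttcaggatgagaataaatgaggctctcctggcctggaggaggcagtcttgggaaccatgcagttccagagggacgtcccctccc
Trem1: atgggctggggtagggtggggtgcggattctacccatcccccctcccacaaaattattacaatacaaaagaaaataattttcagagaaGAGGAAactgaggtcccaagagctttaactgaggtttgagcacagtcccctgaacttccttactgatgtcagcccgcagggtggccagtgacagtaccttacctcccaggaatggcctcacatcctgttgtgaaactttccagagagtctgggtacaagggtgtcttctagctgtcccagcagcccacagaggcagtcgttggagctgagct
The S100a8 window held 2 PU.1 matches and no C/EBP match, and the S100a9 window 1 C/EBP match and no PU.1 match. The Ngp window held 2 C/EBP matches, the Trem1 window 1 PU.1 match, and the Camp window neither motif. Of the windows not printed, that of Ltf held 1 match to each motif and that of Cxcr2 2 PU.1 matches. An NF-kB letter pattern, not printed here, was searched on both strands like the other 2 motifs. It was found in 8.46% of windows and matched only the Camp window among the 7. These are matches of letters, not measured sites.

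S100a8 and S100a9, the calprotectin subunits, were the brightest of the 7 probe sets and stood highest in MACA lungs. S100a8 read 11.71, 11.05 and 10.52 on the MACA 12 h arrays, against 11.11, 10.11, 10.19 and 9.98 on the BSA 12 h arrays and 10.08, 9.96, 9.91 and 8.42 on the HBSS 12 h arrays. At 3 h S100a8 read 11.53, 11.99, 11.52 and 11.66 after MACA, against 9.26, 8.73 and 10.65 after BSA and 10.38, 9.24 and 8.55 after HBSS. Every MACA array lay above every HBSS array at both times, and above every BSA array at 3 h, while MACA and BSA overlapped at 12 h because BSA 12 h replicate 1 reached the MACA range. The log2 fold of S100a8 at 3 h was 2.28 ± 0.51 (SE) for MACA against HBSS (limma, adjusted p = 0.0110) and 2.13 ± 0.51 for MACA against BSA (adjusted p = 0.0228). At 12 h S100a8 was higher in MACA than in HBSS lungs by 1.50 ± 0.51 (adjusted p = 0.0456), and the difference from BSA, 0.75 ± 0.51, did not pass (adjusted p = 0.394).

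S100a9 ran in parallel. It read 11.60, 11.35 and 10.80 on the MACA 12 h arrays, against 11.77, 10.27, 10.19 and 10.34 on the BSA 12 h arrays and 10.28, 10.01, 9.94 and 8.28 on the HBSS 12 h arrays. At 3 h S100a9 read 11.77, 12.50, 11.70 and 11.93 after MACA, against 9.26, 8.50 and 10.66 after BSA and 10.57, 9.89 and 8.35 after HBSS. As for S100a8, the MACA arrays stood clear of both controls at 3 h and of HBSS at 12 h. S100a9 rose after MACA at 3 h, with a log2 fold of 2.37 ± 0.59 (SE) against HBSS (limma, adjusted p = 0.0216) and 2.50 ± 0.59 against BSA (adjusted p = 0.0226). At 12 h the difference from HBSS was 1.62 ± 0.59 and missed the threshold (adjusted p = 0.0642), and that from BSA was 0.60 ± 0.59 (adjusted p = 0.585).

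The control groups spread widely in both calprotectin genes. The SD of S100a9 was 1.09 in BSA 3 h and 1.14 in HBSS 3 h lungs, against 0.37 in MACA 3 h lungs (n = 3, 3 and 4). The calls at 3 h rest partly on single arrays: for MACA against HBSS, the adjusted p of S100a8 was 0.0707 and that of S100a9 0.121 without HBSS 3 h replicate 3, and that of S100a9 was 0.0518 without MACA 3 h replicate 2 and 0.0524 without replicate 4. For MACA against BSA at 3 h, leaving out MACA replicate 2 or 4 or BSA replicate 1 or 2 ended both calls, with adjusted p of 0.0528 to 0.142. At 12 h the S100a8 call was lost without MACA 12 h replicate 1 (adjusted p = 0.174) or 2 (0.115) or HBSS 12 h replicate 2 (0.0590), 3 (0.0567) or 4 (0.134), and with the technical set as a term its log2 fold was 1.16 (adjusted p = 0.292).

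**Figure D1:**
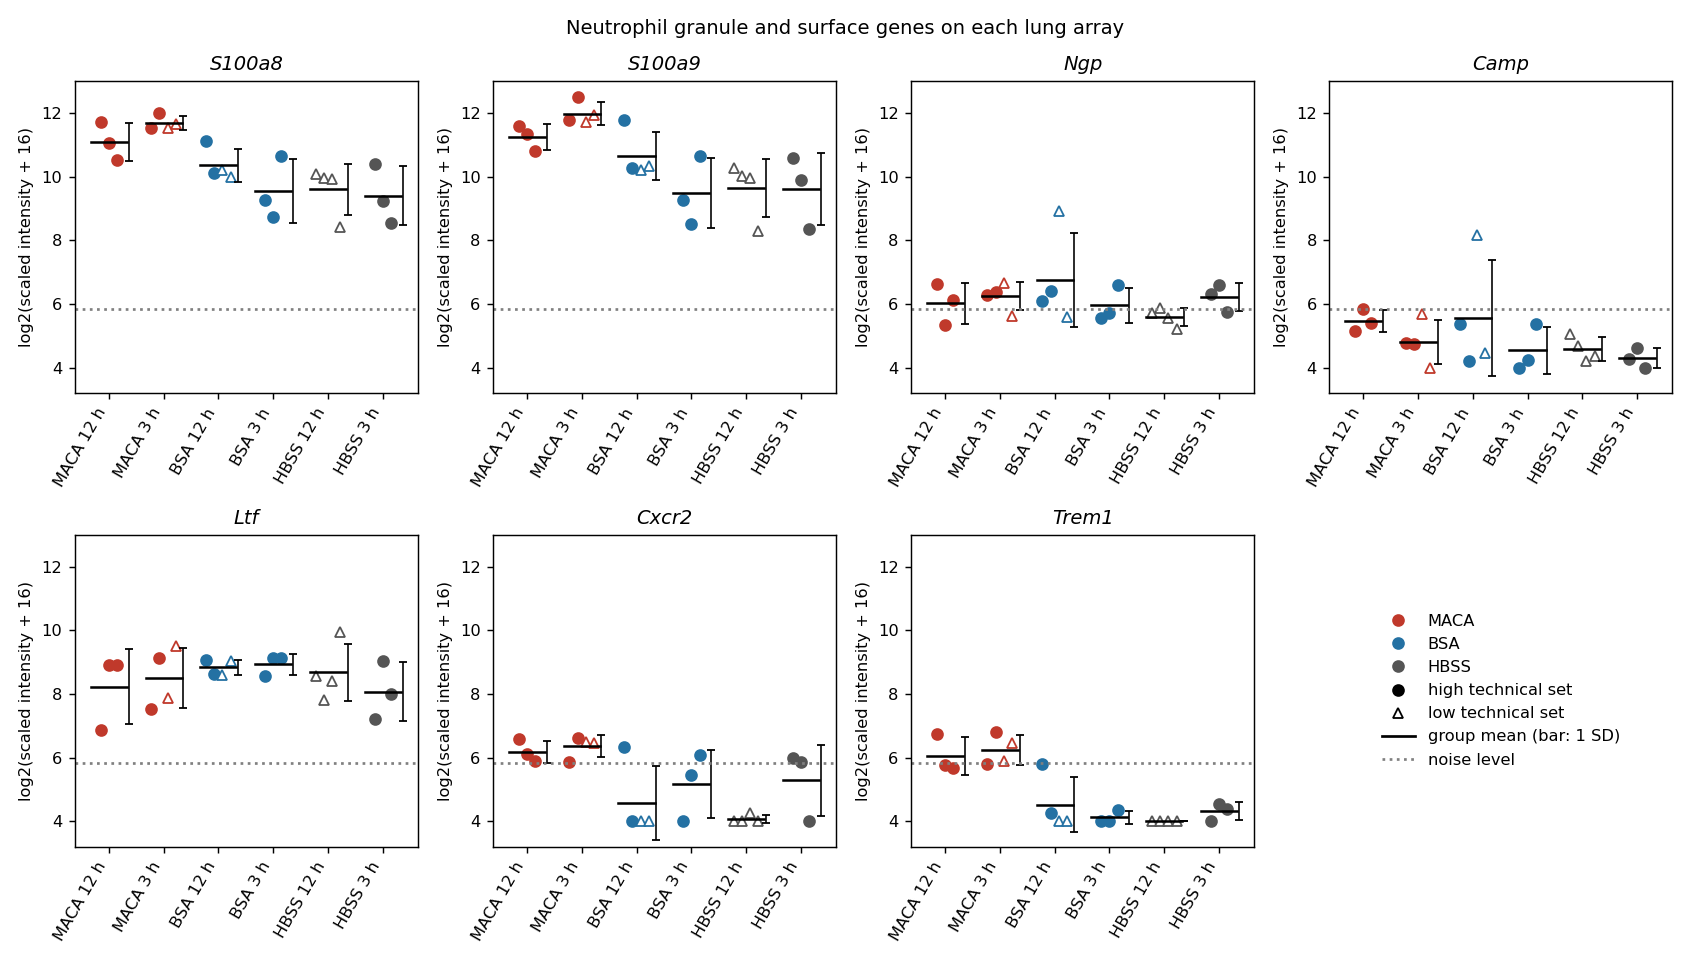
log2(scaled intensity + 16) of the 7 genes on each of the 21 arrays, with 1 point per array, horizontal lines at group means and bars of 1 SD; circles are arrays of the high technical set, open triangles those of the low set, and the dotted line is the noise level (5.83). S100a8 and S100a9 stand between 10.52 and 12.50 on all 7 MACA arrays, Trem1 lies near the floor of 4 in HBSS, and Ngp and Camp peak on a single BSA 12 h array.

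Trem1, the amplifying receptor, separated MACA from vehicle at both times at low intensity. Trem1 read 6.74, 5.77 and 5.66 on the MACA 12 h arrays, against 5.80, 4.25, 4.00 and 4.00 on the BSA 12 h arrays, and all 4 HBSS 12 h arrays were at the floor. At 3 h Trem1 read 5.80, 6.81, 5.90 and 6.44 after MACA, against 4.00, 4.00 and 4.36 after BSA and 4.00, 4.55 and 4.38 after HBSS. Only MACA arrays passed the noise level, 1 of 3 at 12 h and 3 of 4 at 3 h, and all BSA and HBSS arrays were under it. Because the controls gave only a bound, Trem1 was at least 1.33-fold higher in MACA than in HBSS lungs at 3 h (limma, adjusted p = 0.00441) and at least 1.33-fold higher than in BSA lungs (adjusted p = 0.00348). Such a bound sets the mean of the brighter group against the noise level. At 12 h Trem1 was at least 1.17-fold higher than in HBSS lungs (adjusted p = 0.00125) and at least 1.17-fold higher than in BSA lungs (adjusted p = 0.0155). Values set to the floor have lost their spread, as in HBSS 12 h (SD 0), so the adjusted p-values of Trem1 rest in part on the floor. The 12 h groups of MACA and BSA overlapped in Trem1 through BSA 12 h replicate 1, and that call was lost without MACA 12 h replicate 1 (adjusted p = 0.0782), without BSA 12 h replicate 4 (0.0515) and with the technical set as a term (0.0656). Against HBSS at 12 h, Trem1 passed with the set as a term too.

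Cxcr2, the chemokine receptor, was also dim. Cxcr2 read 6.57, 6.10 and 5.88 on the MACA 12 h arrays, against 6.32, 4.00, 4.00 and 4.00 on the BSA 12 h arrays and 4.00, 4.00, 4.25 and 4.00 on the HBSS 12 h arrays. At 3 h it read 5.85, 6.62, 6.50 and 6.46 after MACA, against 4.00, 5.44 and 6.07 after BSA and 5.99, 5.87 and 4.00 after HBSS. All 7 MACA arrays were above the noise level, as were 1 of 4 BSA 12 h, 1 of 3 BSA 3 h, 0 of 4 HBSS 12 h and 2 of 3 HBSS 3 h arrays. Cxcr2 was at least 1.28-fold higher in MACA than in HBSS lungs at 12 h (limma, adjusted p = 0.0164), and the call was lost without MACA 12 h replicate 1 (adjusted p = 0.0625) or 2 (0.0521) and with the technical set as a term (0.174). No other comparison of Cxcr2 passed: the log2 folds were 1.07 ± 0.58 (SE) for MACA against HBSS at 3 h (adjusted p = 0.282), 1.19 ± 0.58 for MACA against BSA at 3 h (0.248) and 1.60 ± 0.58 for MACA against BSA at 12 h (0.0936). Without BSA 12 h replicate 1, the last of these was 2.18 (adjusted p = 0.00762), with all remaining BSA 12 h arrays at the floor. Values set to the floor have lost their spread in Cxcr2 too, as in HBSS 12 h (SD 0.12), so its adjusted p-values rest in part on the floor.

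Ngp and Camp encode secondary granule proteins, neutrophilic granule protein and the cathelicidin antimicrobial peptide precursor, and neither passed the test in any comparison. Ngp read 6.61, 5.33 and 6.13 on the MACA 12 h arrays, against 6.09, 6.41, 8.93 and 5.60 on the BSA 12 h arrays and 5.71, 5.88, 5.56 and 5.22 on the HBSS 12 h arrays. At 3 h Ngp read 6.29, 6.37, 6.66 and 5.63 after MACA, against 5.56, 5.70 and 6.58 after BSA and 6.32, 6.59 and 5.74 after HBSS. Apart from BSA 12 h replicate 3, these values lie within 1 narrow band around the noise level, and the groups overlap. The log2 fold of Ngp for MACA against HBSS was 0.43 ± 0.57 (SE) at 12 h (95% interval -0.78 to 1.64, limma adjusted p = 0.669) and 0.02 ± 0.57 at 3 h (-1.19 to 1.24, adjusted p = 1). The intervals of S100a8 for MACA against HBSS were 0.43 to 2.57 at 12 h and 1.21 to 3.35 at 3 h. They overlap those of Ngp at both times, and a difference between these genes was not tested.

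Camp was under the noise level on 19 of 21 arrays. It read 5.15, 5.84 and 5.39 on the MACA 12 h arrays, against 5.37, 4.21, 8.18 and 4.46 on the BSA 12 h arrays and 5.05, 4.67, 4.21 and 4.35 on the HBSS 12 h arrays. At 3 h it ran from 4.00 to 5.67 after MACA, from 4.00 to 5.37 after BSA and from 4.00 to 4.62 after HBSS, all under noise, so that no fold is given. The 3 MACA 12 h arrays lay above the 4 HBSS 12 h arrays in Camp, mostly below the noise level, and the difference did not pass (limma, adjusted p = 0.406).

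BSA 12 h replicate 3 held the highest Ngp and Camp of all arrays. Among all 12393 genes, Camp and Ngp were the ones that rose farthest on that array over the highest of the other 20 arrays, by 2.34 (8.18 against 5.84) and 2.26 (8.93 against 6.66) on the log2 scale. Mpo, the primary granule enzyme myeloperoxidase, came next with 6.59 on that array against 5.38 for the highest of the others, and it was above the noise level there alone. Prtn3, proteinase 3, read 6.09 on the same array, while Elane (5.55) and Ctsg (5.54), the other serine proteases of those granules, stayed under noise. Behind Mpo in that order came genes of other kinds, Igfals (6.80 against 5.69), the immunoglobulin light chain gene Iglv1 (8.94 against 7.93) and Thrsp (10.51 against 9.59). These genes and the array were singled out after their values were seen. S100a8 (10.19) and S100a9 (10.19) on this array lay with the other BSA 12 h arrays, and Cxcr2 and Trem1 were at the floor. Without this array the log2 fold of Ngp for BSA against HBSS at 12 h was 0.44 (limma, adjusted p = 0.602), against 1.16 ± 0.53 (SE, adjusted p = 0.278) with it, and that of Camp was 0.11 (adjusted p = 0.963).

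Ltf encodes lactoferrin, an iron-binding protein of secondary granules that glands and airway epithelium also make. Ltf read 6.87, 8.90 and 8.91 on the MACA 12 h arrays, against 9.05, 8.63, 8.60 and 9.04 on the BSA 12 h arrays and 8.57, 7.82, 8.40 and 9.94 on the HBSS 12 h arrays. At 3 h Ltf read 7.52, 9.11, 7.87 and 9.50 after MACA, against 8.56, 9.11 and 9.13 after BSA and 7.20, 9.03 and 7.99 after HBSS. Every group overlapped every other, and Ltf was above noise on all arrays. The log2 fold of Ltf for MACA against HBSS was -0.46 ± 0.60 (SE) at 12 h (95% interval -1.72 to 0.80, limma adjusted p = 0.660) and 0.43 ± 0.60 at 3 h (-0.83 to 1.69, adjusted p = 0.725).

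Counted over the 7 genes, MACA lungs were higher than vehicle lungs in 3 at 12 h (S100a8, Cxcr2 and Trem1) and 3 at 3 h (S100a8, S100a9 and Trem1), by limma with an adjusted p under 0.05. Of all genes, 10.2% were called higher at 12 h and 4.84% at 3 h, and 10.1% and 3.28% lower. The median log2 fold of the 7 genes was 1.50 at 12 h and 1.07 at 3 h, beside -0.00 and -0.02 over all genes. None of the 7 was called lower. Every MACA array lay above every HBSS array for 5 of 7 genes at 12 h (15.0% of all genes) and 3 of 7 at 3 h (10.1%). With the technical set as a term, 1 of the 7, Trem1, was called at 12 h and 3 at 3 h. Within the high set alone, the 2 MACA 3 h and 3 HBSS 3 h arrays gave log2 folds of 2.37 for S100a8 (adjusted p = 0.0869), 2.53 for S100a9 (0.108) and 2.00 for Trem1 (0.0552), and none passed. That of Trem1 is a fitted value against controls under noise. Changes in the number of neutrophils and in RNA per cell cannot be told apart in homogenized lung.

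Against BSA, MACA lungs were higher in 1 of the 7 genes at 12 h, Trem1 (4.07% of all genes were called higher and 5.58% lower), and in 3 at 3 h, S100a8, S100a9 and Trem1 (3.50% and 2.45%). None was called lower. The median log2 fold of the 7 genes was 0.60 at 12 h and 1.19 at 3 h, beside -0.03 and -0.00 over all genes. All MACA arrays lay above all BSA arrays for 0 of 7 genes at 12 h (7.76% of all genes) and 3 of 7 at 3 h (8.30%). Within the high set alone, the log2 folds at 3 h were 2.21 for S100a8 (adjusted p = 0.144), 2.66 for S100a9 (0.132) and 2.19 for Trem1 (0.0746). At 12 h Trem1 had 1.04 there (adjusted p = 0.306). Both Trem1 folds are fitted values against controls under noise. The comparisons of MACA with HBSS and with BSA share the MACA arrays.

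BSA against HBSS called 0 of the 7 genes at 12 h (1.35% of all genes in either direction) and 0 at 3 h (0.178%) by limma. At an unadjusted p under 0.05 there was 1 at 12 h, Ngp, which rests on replicate 3 as above, and 0 at 3 h. The 7 log2 folds ran from 0.15 to 1.16 at 12 h, with S100a9 at 1.01 ± 0.55 (SE, 95% interval -0.15 to 2.17) and S100a8 at 0.75 ± 0.47 (-0.24 to 1.75). At 3 h they ran from -0.27 to 0.86, with S100a8 at 0.16 ± 0.54 (-0.99 to 1.30).

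**Figure D2:**
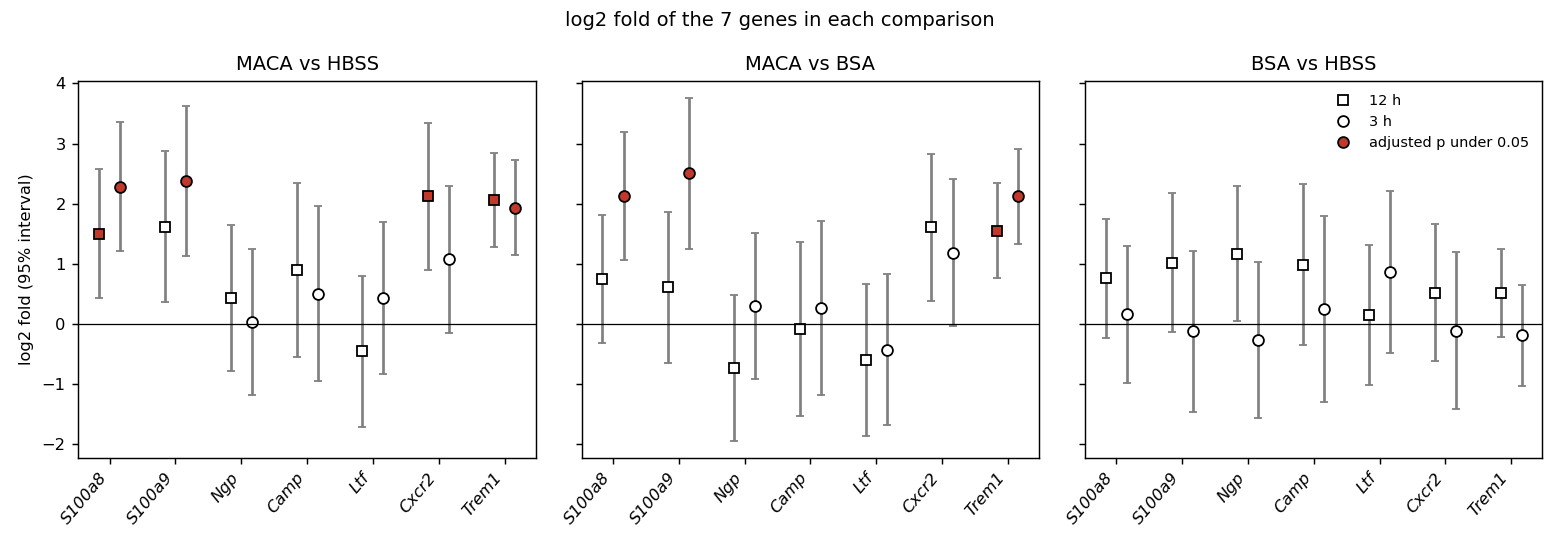
log2 fold of the 7 genes for MACA against HBSS, MACA against BSA and BSA against HBSS, with squares for 12 h, circles for 3 h and bars for the 95% interval; filled symbols have a limma adjusted p under 0.05. The filled symbols are S100a8, S100a9, Cxcr2 and Trem1 only, and none is in the panel of BSA against HBSS; fitted folds of Trem1, Cxcr2 and Camp rest in part on values under the noise level.

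Between times, 12 h against 3 h called 0 of the 7 genes in MACA lungs (10.7% of all genes in either direction), 0 in BSA lungs (5.30%) and 0 in HBSS lungs (7.88%) by limma, and 0 in each at an unadjusted p under 0.05. In MACA lungs S100a9 averaged 11.25 ± 0.41 at 12 h (SD, n = 3) and 11.97 ± 0.37 at 3 h (n = 4), and all 12 h arrays lay below all 3 h arrays, as for 9.98% of all genes. S100a8 averaged 11.09 ± 0.59 at 12 h and 11.67 ± 0.22 at 3 h, with overlap. In BSA lungs the means of both ran the other way, with S100a9 at 10.64 ± 0.75 at 12 h (n = 4) and 9.47 ± 1.09 at 3 h (n = 3). The MACA minus BSA difference at 12 h less that at 3 h was -1.90 ± 0.84 (SE) for S100a9, the one gene of the 7 at an unadjusted p under 0.05, and it did not pass (limma, adjusted p = 0.247). That interaction called 0 of 7 genes (0.718% of all genes in either direction), and the one with HBSS as control called 0 of 7 (3.91%) and 0 at an unadjusted p under 0.05. A different response at the 2 times was thus not shown for any of the 7. HBSS 12 h and HBSS 3 h share no technical set, so time and set cannot be told apart in HBSS lungs. This also bears on the interaction with HBSS as control. In MACA and BSA lungs the sets differed between the times in part.

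Ordered by mean, S100a8 and S100a9 each ran from MACA 3 h at the top through MACA 12 h, BSA 12 h and HBSS 12 h to the BSA and HBSS groups at 3 h. Trem1 and Cxcr2 also had the MACA groups on top, and Ngp and Camp had BSA 12 h first, through 1 array. Ltf had BSA 3 h first and HBSS 3 h last. Of all neighbours in these orders, only MACA 3 h and MACA 12 h for S100a9 had ranges that did not overlap.

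With the group means taken out, 1 of the 21 pairs of the 7 genes moved together past the test, S100a8 and S100a9. Over the 21 arrays, deviations of S100a8 and S100a9 from their group means correlated at Pearson r = 0.96 (permutation p = 2e-05) and Spearman rho = 0.96 (p = 3e-05). Adjusted over the 21 pairs, these were 0.00042 and 0.00063, and r was 0.95 without the 2 arrays farthest from the median. Ngp and Camp had r = 0.83 and rho = 0.62 (adjusted permutation p = 0.0785 and 0.0796), and r = 0.54 without BSA 12 h replicates 3 and 4. Cxcr2 and Trem1 had r = 0.64 and rho = 0.58 (adjusted permutation p = 0.0785 and 0.106), Cxcr2 and S100a9 r = 0.69 and rho = 0.67 (0.0785 and 0.0796). Ltf had r = -0.40 with S100a8 and -0.22 with S100a9 (adjusted permutation p = 0.250 and 0.688). The arrays share their scaling, and values at the floor tie in Cxcr2, Trem1 and Camp.

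**Figure D3:**
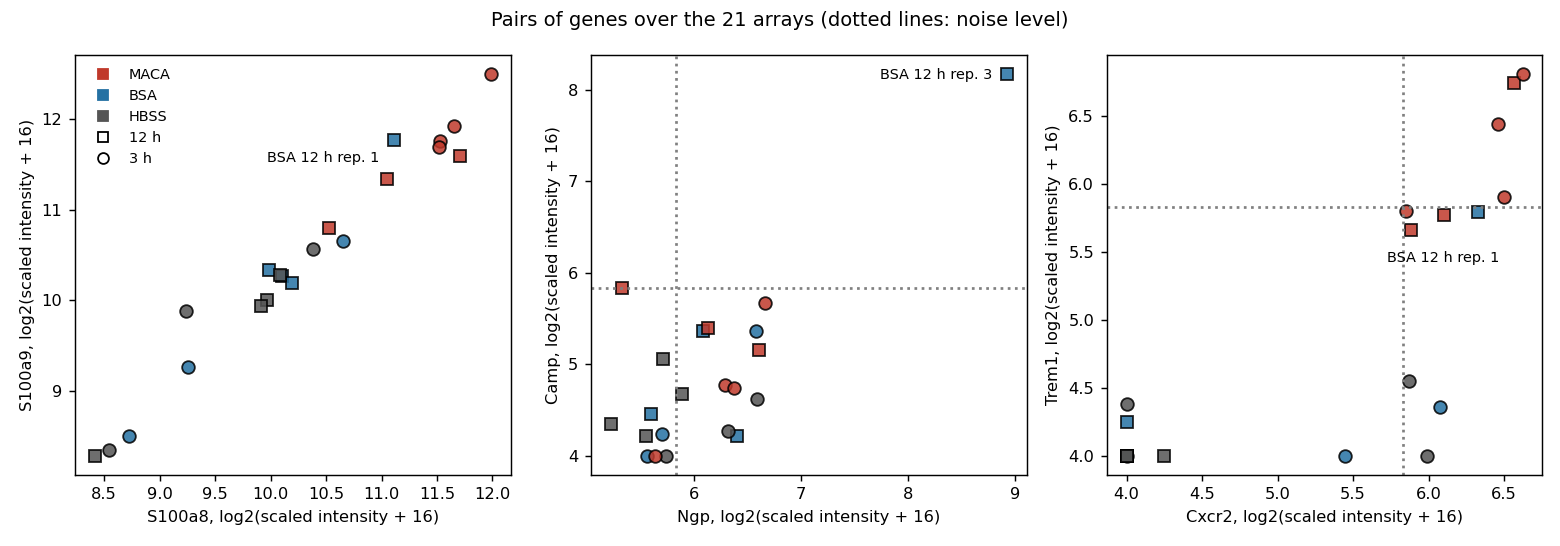
Values of S100a9 against S100a8, Camp against Ngp and Trem1 against Cxcr2, as log2(scaled intensity + 16), with 1 point per array, colour for the agent, squares for 12 h and circles for 3 h. S100a8 and S100a9 rise along one line through all groups, Ngp and Camp are separated by BSA 12 h replicate 3 at 8.93 and 8.18, and BSA 12 h replicate 1 lies among the MACA arrays in the first and last panels.

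The genes whose values over the 21 arrays were most like each of the 7 were named by Pearson r among 8907 genes with a mean above noise, as a description. They share arrays, scaling and group differences. For S100a8 they were Slfn1 (0.935), Selplg (0.933), the P-selectin ligand by which leukocytes roll, and Msrb1 (0.919), and for S100a9 Slfn1 (0.939), Selplg (0.934) and Il1b (0.920), an inflammatory cytokine. For Trem1 they were Acod1 (0.961), the enzyme that makes itaconate, Hcar2 (0.959) and Mcoln2 (0.937), and for Cxcr2 P2ry2 (0.881), a nucleotide receptor, Steap4 (0.873) and Ccl9 (0.866). Ltf was unlike these, with Bpifa1 (0.884) and Scgb3a1 (0.799), secreted by airway epithelium, and Nppa (0.825), a cardiac hormone. Ngp had Dok4 (0.747), Slc27a1 (0.729) and Atp6v1e1 (0.720), and Camp was too dim to be compared. Ngp and Dok4 both had their highest value on BSA 12 h replicate 3 (8.93 and 8.70). How far the likeness to Ngp rests on that array was not tested.

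Some listed secondary and tertiary granule genes, receptor genes and Cxcr2 ligands were higher after MACA, while 4 of 6 primary granule genes were under noise. The secondary granule genes Ngp, Camp and Ltf, which the lists leave out, passed in no comparison. The lists are described by counts, medians and the background of 10.2% (12 h) and 4.84% (3 h) of all genes called higher for MACA against HBSS. Of 6 primary granule genes, 1 was higher at 12 h (Ctsc, the protease that activates the serine proteases of these granules, by a log2 fold of 0.37, limma adjusted p = 0.0165) and 0 at 3 h (0 at an unadjusted p under 0.05), with a median of -0.05 and -0.00. With the technical set as a term, Ctsc had 0.10 at 12 h (adjusted p = 0.549) and 0.30 at 3 h (0.0247), so that the list had 0 higher at 12 h and 1 at 3 h. Serpinb1a, an inhibitor of these proteases, had -0.01 at 12 h and -0.15 at 3 h and did not pass. Mpo, Elane, Prtn3 and Ctsg were under noise in both groups at both times. The counts and medians of this list therefore rest mostly on genes without a measurable fold, and a change in them could not be seen.

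Of 13 secondary and tertiary granule genes measured, 7 were higher at 12 h and 6 at 3 h, with medians of 0.77 and 0.40. At 12 h Slpi, a protease inhibitor, rose by 2.03 (log2 fold, limma adjusted p = 4.77e-05), Lcn2, the iron-sequestering lipocalin, by 1.94 (0.00354) and Pglyrp1, a peptidoglycan recognition protein, by 1.24 (0.00295). Lcn2 and Slpi already averaged 11.24 and 8.70 in HBSS 12 h lungs, and which cells made them was not tested. At 3 h Mmp8, the neutrophil collagenase, rose by 2.06 (0.00603), Mmp9, a gelatinase, by 1.31 (0.000522) and Pglyrp1 by 1.06 (0.0172). The 2 times did not call the same members: Mmp8 had 0.39 at 12 h with overlapping groups (0.570), and Lcn2 had 1.29 at 3 h (0.0631). Itgam, the CD11b integrin chain, was at least 2.29-fold higher at 12 h (5.33e-05) and at least 1.50-fold higher at 3 h (0.00395). Lyz2, a lysozyme that macrophages and alveolar type II cells also make, had log2 folds of -0.13 at 12 h and -0.02 at 3 h and did not pass, nor did Anxa1 at 12 h (-0.09) or Chil1 at 3 h (0.37).

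Of 16 surface and chemoattractant receptor genes measured, 10 were higher at 12 h and 8 at 3 h, with medians of 0.90 and 0.95. Clec4e, a receptor for fungal and mycobacterial glycolipids, rose by 2.86 (log2 fold, limma adjusted p = 0.00268) at 12 h and 2.36 (0.0193) at 3 h, and Clec4d, a related lectin receptor, by 2.11 (0.00425) and 1.82 (0.0226). Ccr1, a chemokine receptor, rose by 2.09 at 12 h (0.000342), and Il1r2, the decoy receptor of interleukin 1, was at least 3.05-fold higher (0.00221). Csf3r, the receptor for G-CSF, rose by 1.95 at 3 h (0.00919). Cd14, a coreceptor for lipopolysaccharide, rose by 2.23 at 3 h (0.00820) and had 0.84 at 12 h, which did not pass (0.235). Fpr2 at 12 h (0.68) and Tyrobp (0.36) and Itgb2 (0.33) at 3 h did not pass either.

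Of 14 other neutrophil genes, 8 were higher at 12 h and 4 at 3 h, with medians of 0.47 and 0.49. Il1b rose by 2.69 at 12 h (log2 fold, limma adjusted p = 0.00482) and 3.26 at 3 h (0.00312), and Slfn4, a schlafen gene of myeloid cells, by 2.73 (0.0243) and 2.78 (0.0428). The NADPH oxidase subunit Ncf1 rose by 1.27 (0.00251) and 0.95 (0.0292), Ncf4, another subunit, by 1.48 at 12 h (0.000225), and Msrb1 by 0.48 at 3 h (0.0107). Cebpd, a C/EBP factor, had 0.45 at 12 h and 0.52 at 3 h, Alox5ap 0.17 at 12 h and Cebpb 0.08 at 3 h, and none of these passed.

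Of 6 chemokines measured in the list of Cxcr2 ligands, Cxcl1, Cxcl2 and Cxcl5 were higher after MACA at each time. Cxcl1 rose by 3.33 at 12 h (log2 fold, limma adjusted p = 0.00392) and 4.05 at 3 h (0.00246), Cxcl2 by 2.87 (0.0127) and 4.09 (0.00312), and Cxcl5 by 2.37 (0.00936) and 3.22 (0.00312). Cxcl15, a CXC chemokine made by lung epithelium, had -0.02 at 12 h and 0.12 at 3 h, Pf4, a platelet chemokine, 0.28 and 0.30, and neither passed. Pf4 was counted in the list although it is not an established ligand of Cxcr2. With the technical set as a term, 0 of 6 listed chemokines were called at 12 h and 3 at 3 h. Of 8 other S100 and calprotectin receptor genes, 1 was higher (S100a4, 0.88, adjusted p = 0.000272) and 1 lower (Cd36, a scavenger receptor, -0.61, 0.000785) at 12 h, and 0 changed at 3 h (0 at an unadjusted p under 0.05). S100a4 (0.85, adjusted p = 0.00587) and Cd36 (-0.77, 0.00216) passed with the set as a term too.

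Against BSA, 1 at 12 h and 0 at 3 h of 6 primary granule genes were higher, and 6 and 5 of 13 secondary and tertiary granule genes. Among surface and receptor genes 7 and 10 of 16 were higher, and among other neutrophil genes 6 and 6 of 14. Counts were 3 and 3 of 6 listed chemokines and 1 and 0 of 8 S100 and receptor genes. Of all genes, 4.07% were called higher against BSA at 12 h and 3.50% at 3 h, and 5.58% and 2.45% lower. Ppbp, a platelet chemokine of the ligand list, was lower at 12 h (log2 fold -0.85, limma adjusted p = 0.0118). Counts at 12 h against HBSS moved with the technical set: with it as a term they were 6 of 13 secondary and tertiary granule genes, 2 of 16 surface and receptor genes, 2 of 14 other neutrophil genes and 0 of 6 ligands. At 3 h they were 7, 10, 5 and 3. In that fit at 12 h Slpi (1.58, adjusted p = 0.00232), Itgam (1.58, 0.00238), Pglyrp1 (1.08, 0.0484), Ccr1 (1.44, 0.0156), Ncf4 (1.55, 0.00342) and Ncf1 (1.10, 0.0434) passed. Lcn2 (1.52, 0.0734), Clec4e (1.92, 0.0876), Clec4d (1.35, 0.127), Il1r2 (1.56, 0.0600), Il1b (2.15, 0.0853), Slfn4 (1.20, 0.447), Cxcl1 (2.72, 0.0710), Cxcl2 (2.40, 0.131) and Cxcl5 (1.35, 0.232) did not. This fit was added after the data were seen, and the share of all genes it called was not counted. Its term rests on differences within MACA 3 h and BSA 12 h. BSA 12 h replicate 1 stood apart there, as in Cxcl1 (9.44, against 6.86, 6.11 and 7.01 on the other BSA 12 h arrays). Why the counts changed was not tested.

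**Figure D4:**
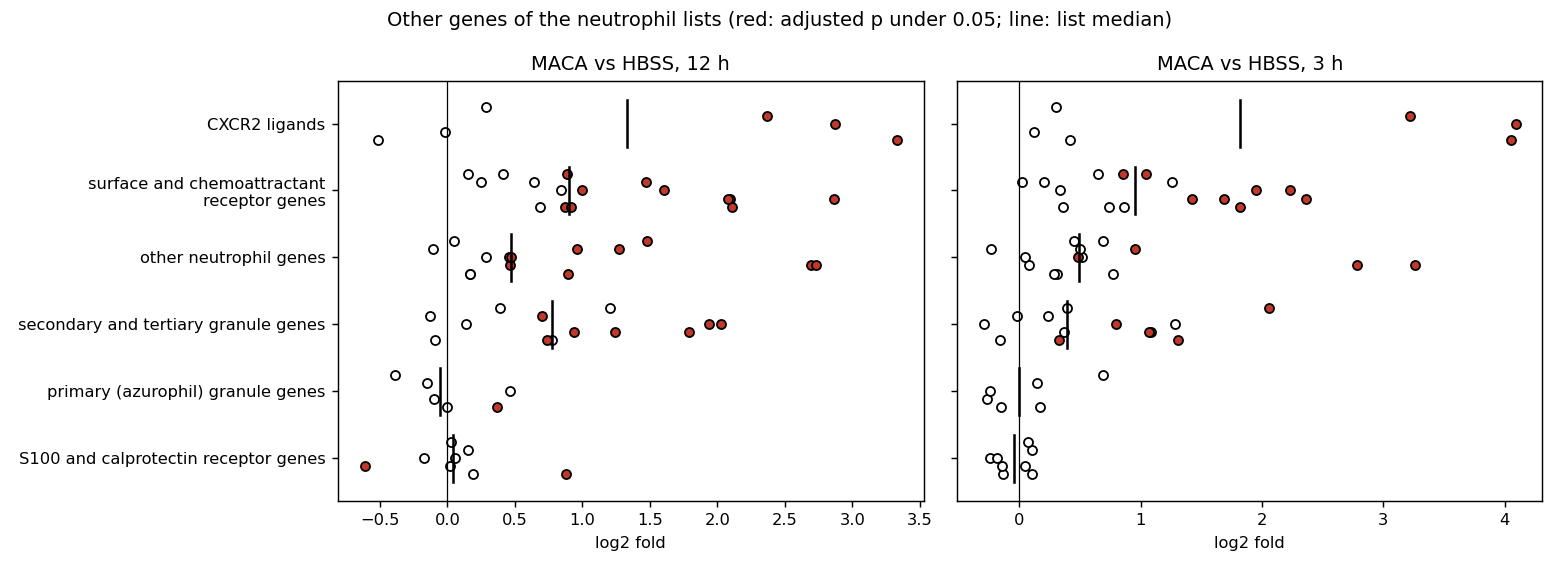
log2 fold for MACA against HBSS of the genes in 6 lists related to neutrophils at 12 h and 3 h, with 1 point per gene, red where the limma adjusted p is under 0.05, and a vertical line at the list median. The ligands Cxcl1 and Cxcl2 lie farthest to the right at 3 h, at 4.05 and 4.09, and the medians of the primary granule and S100 lists lie near 0. Mpo, Elane, Prtn3 and Ctsg were under noise in both groups, so the primary granule median rests mostly on genes without a measurable fold.

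Markers of other cells moved with the neutrophil genes in part. Of all genes, 10.2% were called higher and 10.1% lower for MACA against HBSS at 12 h, and 4.84% and 3.28% at 3 h. Counts such as 1 of 8 at 12 h lie near that share. Every MACA array lay above every HBSS array for 15.0% of all genes at 12 h and 10.1% at 3 h. For MACA against HBSS, 4 of 9 monocyte and macrophage markers were higher at 12 h (Ccr2, Cd68, Marco and Ms4a7) and 0 of 9 at 3 h, and their summed scaled intensity was 15485 to 16217 in MACA 12 h against 14864 to 15309 in HBSS 12 h lungs, and 13238 to 15024 in MACA 3 h against 13966 to 14957 in HBSS 3 h lungs. B cell markers were higher for 2 of 4 and alveolar epithelial markers for 3 of 7 at 12 h, and for 0 of either at 3 h. The summed B cell markers ran from 577 to 847 in MACA 3 h against 332 to 446 in HBSS 3 h lungs, with no overlap, and from 731 to 1455 in MACA 12 h against 383 to 816 in HBSS 12 h lungs. T cell and NK cell markers were higher for 1 of 8 at 12 h and 0 at 3 h, with sums of 1571 to 2521 in MACA 12 h against 777 to 1677 in HBSS 12 h and 1316 to 1915 in MACA 3 h against 774 to 1368 in HBSS 3 h lungs. With the technical set as a term, the higher markers at 12 h were 1 of 9 for monocytes and macrophages, 2 of 4 for B cells, 0 of 8 for T cells and NK cells and 3 of 7 for alveolar epithelium, and at 3 h 1 of 9 monocyte and macrophage markers was higher. With that term, 1 of 9 monocyte and macrophage, 1 of 5 eosinophil and 1 of 6 endothelial markers were called lower at 12 h. Against BSA at 12 h, without the term, 0 of 4 B cell and 0 of 7 alveolar epithelial markers were higher. For T cells and NK cells it was 0 of 8, and for monocytes and macrophages 1 of 9. At 3 h these counts against BSA were 0, 0, 1 and 1, and none was lower at either time. The summed B cell markers of BSA 12 h lungs, 764 to 1298, lay within the MACA 12 h range. For MACA against HBSS at 12 h without the term, 1 of 5 mast cell and basophil markers was called higher. There 1 of 6 fibroblast and smooth muscle markers was called lower. No marker of airway secretory cells and glands (0 of 9) was called at either time. Of the eosinophil markers 4 of 5, and of the mast cell and basophil markers 5 of 5, were under noise on all 21 arrays. Trem1, Il1b and several listed receptors are also made by monocytes and macrophages, and the part of other cells in the changes was not tested.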

How the data were processed

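Total RNA of whole left lungs was labelled and hybridised to arrays with 22690 probe sets, and what the authors deposited are linear intensities, 9.38% to 11.2% of them below 0 on each array. Which scanner software, summary method and scaling they used is not given in the sources used here. After 64 control probe sets were left out, intensities were quantile normalized between arrays (limma 3.58.1, R 4.3.3), negative values became 0 and log2(value + 16) was taken, so that folds of dim genes come out too small. The brightest probe set stood for each of 12393 genes. limma fitted 6 group means to 21 arrays (15 residual degrees of freedom) for 11 comparisons, with Benjamini-Hochberg adjustment over all genes. Where all arrays of 1 group were under the noise level, the fold is a lower bound, the mean log2 value of the brighter group over the noise level, and where both groups were under it there is none. Log2 folds of the alternative fits, and medians and ranges over genes, are as fitted, without this rule. The fit was tested on simulated data. Correlations used 100000 permutations (python 3.11.15, matplotlib 3.10.9 for figures).

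The 7 genes and all gene lists were chosen with earlier results of these data known. The text names the 7 genes, up to 4 genes of each list with the largest fold past the threshold for MACA against HBSS at each time, up to 2 bright ones that did not pass, and the 3 genes most like each of the 7. Ppbp, Cd177, Igfals, Iglv1, Thrsp, Mpo, Prtn3, Elane and Ctsg on single arrays, and the markers of other cells, were named after their values were seen. Olfm4, Cxcr1, Fpr1, Ly6g, Retnlg and Cxcl3 were among listed genes with no measured probe set of a single symbol. The alternatives tried were no scaling, median scaling, another pseudocount, all probe sets, a filter on dim genes, only the groups compared, the replicate number as a block, the technical set as a term, arrays of one set, and leaving out each array. The number of arrays limits the precision.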

Additional observations from a re-analysis of the deposited data

Results flagged for a closer look

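In each of the 21 groups of 4 arrays that the 7 genes give, the highest or lowest array was set against the others by Dixon's ratio, the gap to the nearest array over the whole range. An array was picked out above Dixon's 95% critical value for 4 samples, and this happened 6 times. For normal values without ties, chance passes that value in about 1 of 20 groups. Cxcr2 and Trem1 tie at the floor, so that rate does not hold for them. Where all other arrays are at the floor, the ratio is 1 for any value above it. The HBSS 12 h group of Trem1, all at the floor, could not be picked out.

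BSA 12 h replicate 1 was picked out for 3 genes. S100a9 was 11.77 there, against 10.34 for the nearest array (ratio 0.907), Cxcr2 was 6.32 with the other 3 arrays at the floor of 4 (ratio 1), and Trem1 was 5.80, under the noise level, against 4.25 (ratio 0.863). Cd177, a neutrophil surface protein, was the gene that lay farthest above the other 20 arrays on this array, at 8.75 against 7.69.

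HBSS 12 h replicate 4 was low for both calprotectin genes. S100a8 was 8.42 there, against 9.91 for the nearest array (ratio 0.895), and S100a9 was 8.28, against 9.94 (ratio 0.8292). Cxcr2 in HBSS 12 h replicate 3 was 4.25 with the other arrays at the floor of 4 (ratio 1), all under the noise level. Why these arrays stand apart was not tested.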

How the results depend on the processing

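The counts of the 7 genes past the threshold were 3 (MACA against HBSS, 12 h), 3 (3 h), 1 (MACA against BSA, 12 h) and 3 (3 h). Without scaling they were 2, 1, 0 and 1, with only the groups compared 2, 2, 0 and 1, with the technical set as a term 1, 3, 0 and 3, and within the high technical set 0 for MACA against HBSS at 3 h and 0 and 0 for MACA against BSA at 12 h and 3 h. MACA and HBSS at 12 h have no common set. With only genes above noise on at least 3 arrays, MACA against HBSS at 12 h called 4, S100a9 added (adjusted p = 0.0397). Leaving out 1 array gave 1 to 3 and 1 to 3 for MACA against HBSS at 12 h and 3 h, and 0 to 2 and 1 to 3 for MACA against BSA. BSA against HBSS and the comparisons between times stayed at 0 in all fits. Replicate numbers were not taken as pairs: same-numbered arrays of different groups correlated at -0.237 to 0.474 (median 0.0988), not all above 0.1, and differently numbered ones at -0.418 to 0.442 (median -0.032). With the replicate block MACA against HBSS at 12 h called 2 (S100a8 1.33, adjusted p = 0.0706), and the other counts were 3, 1 and 3. Log2 folds that changed sign had not been called. Other than by leaving out arrays, 22 did, most of them in comparisons between times or interactions (12 h against 3 h in HBSS for S100a9, Ngp, Camp and Trem1, and interactions of Ngp, Camp, Ltf, Cxcr2 and Trem1). Those between agents were, without scaling, 0.035 for S100a9 (BSA against HBSS, 3 h), -0.10 for Ngp (MACA against HBSS, 12 h) and -0.41 for Ltf (BSA against HBSS, 12 h); with the set as a term, -0.18 for Ngp (MACA against HBSS, 3 h), -0.14 for Camp (MACA against BSA, 3 h) and 0.31 for Camp (MACA against BSA, 12 h); within the high set, 0.67 for Camp (MACA against BSA, 12 h); and within the low set, -0.062 for Cxcr2 (BSA against HBSS, 12 h). Leaving out single arrays moved through 0 the folds for MACA against HBSS of Ngp (3 h, -0.22 to 0.23), Ltf (3 h, -0.0078 to 0.91; 12 h, -0.80 to 0.22), for MACA against BSA of Camp (3 h, -0.031 to 0.68; 12 h, -0.54 to 0.78) and Ltf (12 h, -0.95 to 0.072), and for BSA against HBSS of S100a8 (3 h, -0.40 to 0.65), S100a9 (3 h, -0.75 to 0.36), Camp (3 h, -0.18 to 0.51), Cxcr2 (3 h, -0.76 to 0.47; 12 h, -0.062 to 0.71) and Ltf (12 h, -0.14 to 0.57). Camp was under noise in all groups at 3 h, so its folds there are fitted values only. The cause of these changes was not tested. Signal near the noise level limits Camp, Ngp, Cxcr2 and Trem1.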
